A study of Mus musculus with 7 samples.

Results

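Ucp1 encodes uncoupling protein 1, a carrier of the mitochondrial inner membrane, and was 1 of 9294 genes measured in mouse paracardial and intra-abdominal fat. It was chosen by name and read from the 1 probe that the platform annotation assigns to it, TC0800000919.mm.1. All samples were wild-type male C57 mice, with no genetic change and no treatment named in the labels and no age given. RNA from fat lying next to the heart (paracardial fat, pCF) was hybridised to 4 Affymetrix arrays, called pCF1 to pCF4 here, and RNA from intra-abdominal fat (iVF) to 3, called iVF1 to iVF3, where the digit is the replicate number of the label. The labels name the arrays of a depot biological replicates but do not mention separate animals, and the p-values below therefore measure only the spread between these samples. Values are the deposited log2 values, whose scale and centring are known only as far as the files show them, so a difference of 1 is not a calibrated fold of any size.

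UCP1 lets protons flow back across the inner membrane of the mitochondrion without passing through ATP synthase, so that the energy of the respiratory chain is released as heat. It is the defining protein of brown adipocytes and of beige adipocytes, the thermogenic cells that can appear within white fat, and white adipocytes hold little of its mRNA. Noradrenaline acting on β-adrenergic receptors raises cyclic AMP, which frees fatty acids from lipid droplets to fuel and activate the protein, and which turns on transcription of the gene through CREB-type and nuclear receptor-type sites.

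The 250 bases before the start of Ucp1 are shown because members of the brown fat programme described below shared its high array, together with the same window of Cox7a1 and Cox8b, which encode subunits of cytochrome c oxidase used as brown fat markers. The sequences are those of RefSeq on GRCm38.p6, at chr8:83290098-83290347 on the plus strand for Ucp1, chr7:30183921-30184170 on the plus strand for Cox7a1 and chr7:140900447-140900696 on the minus strand for Cox8b. Each is written 5′ to 3′ in the direction of its gene, and capitals mark the motifs found.
Ucp1: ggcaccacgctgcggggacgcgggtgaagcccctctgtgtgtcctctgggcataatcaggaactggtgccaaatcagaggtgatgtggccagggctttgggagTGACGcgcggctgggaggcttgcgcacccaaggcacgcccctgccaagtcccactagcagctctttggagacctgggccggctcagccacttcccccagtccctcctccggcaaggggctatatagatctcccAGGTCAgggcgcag
Cox7a1: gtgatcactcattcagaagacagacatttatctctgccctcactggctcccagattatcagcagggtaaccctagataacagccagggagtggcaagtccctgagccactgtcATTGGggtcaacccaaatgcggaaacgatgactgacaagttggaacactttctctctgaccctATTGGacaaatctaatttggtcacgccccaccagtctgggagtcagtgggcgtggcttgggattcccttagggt
Cox8b: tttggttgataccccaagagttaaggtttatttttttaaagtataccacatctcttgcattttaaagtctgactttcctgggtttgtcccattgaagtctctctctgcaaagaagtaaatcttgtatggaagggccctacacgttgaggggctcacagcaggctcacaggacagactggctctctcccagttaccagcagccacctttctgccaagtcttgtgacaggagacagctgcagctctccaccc

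Both strands were searched for 6 motifs. TGACG is the core of the cyclic AMP response element, AGGTCA a core nuclear receptor site, and the longer AAGGTCA, which contains it, the type bound by estrogen-related receptors. The CCAAT box was searched as CCAAT, the GC box as GGGCGG and the TATA box as TATAAA. The Ucp1 window held TGACG 147 bases and AGGTCA 14 bases before the start. Among 32851 windows of this length in the RefSeq table, 17.8% held TGACG and 14.0% held AGGTCA. The Cox7a1 window held CCAAT on its minus strand, printed as ATTGG, 137 and 74 bases before the start, a motif present in 33.8% of windows. The Cox8b window held none of the 6 motifs. The exact letters searched for the estrogen-related receptor site, the GC box and the TATA box had no match in the 3 windows. They were found in 4.08%, 32.7% and 12.4% of all windows. Variant letters, such as the TATATA that the Ucp1 window holds, were not counted. These matches describe the letters only. The enhancer that lies further upstream of Ucp1 is outside this window and was not analysed here.

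Ucp1 was high on 1 of the 7 arrays. Its log2 value was 4.61, 4.99, 6.14 and 13.92 on pCF1 to pCF4. It was 4.84, 4.57 and 4.36 on iVF1 to iVF3. pCF4 stood 7.78 above the next highest array, pCF3, while the 6 arrays other than pCF4 spanned 1.78 in all. pCF3 came next and lay 1.30 above the highest intra-abdominal array. pCF1 and pCF2 lay within or just above the intra-abdominal range, so the depots overlapped. From high to low the order was pCF4, pCF3, pCF2, iVF1, pCF1, iVF2 and iVF3. From pCF2 down, neighbours in this order differed by less than 0.24, the SD of the intra-abdominal arrays. Ucp1 lay above 8.14%, 20.2%, 47.8% and 90.3% of the probes of pCF1 to pCF4. On iVF1 to iVF3 it lay above 14.7%, 7.75% and 11.8%, so the order from pCF2 down rests on values low on their arrays.

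**Figure D1:**
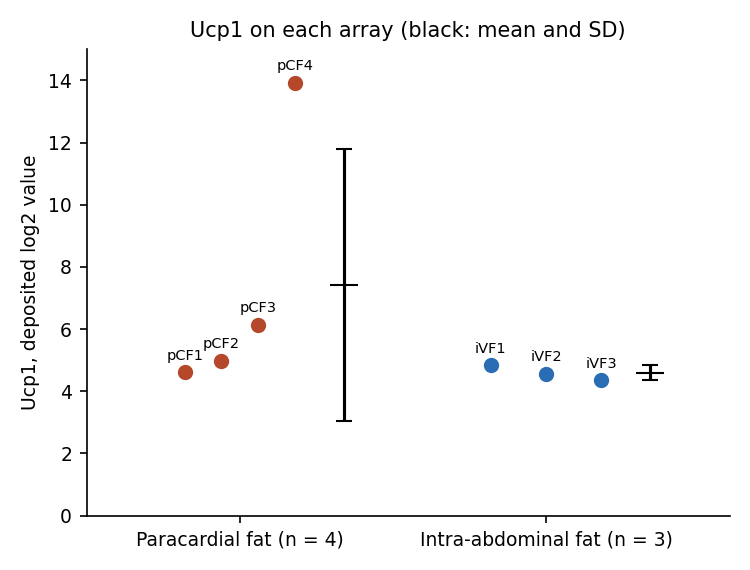
Deposited log2 value of Ucp1 (y axis) on each of the 4 paracardial arrays (pCF1 to pCF4, red) and 3 intra-abdominal arrays (iVF1 to iVF3, blue), with the depot mean and SD in black. pCF4 sits at 13.92, while the 6 other points lie between 4.36 and 6.14.

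The difference between the depot means was smaller than the spread between the paracardial arrays. The mean was 7.41 ± 4.38 (SD, n = 4) in paracardial and 4.59 ± 0.24 (SD, n = 3) in intra-abdominal fat, and the medians were 5.56 and 4.57. The difference, paracardial minus intra-abdominal, was 2.83 ± 2.25 (SE), with a 95% interval from -2.55 to 8.20, and limma with Benjamini-Hochberg adjustment over all genes gave an adjusted p of 0.510. The two-sided exact permutation test over the 35 splits of the arrays gave p = 0.286, where the smallest p this design allows is 0.0286. Without pCF4 the paracardial mean was 5.25 ± 0.80 (SD, n = 3) and the difference fell to 0.66. The interval of the difference covers both a lower level and a much higher level in paracardial fat, so these arrays do not settle the depot's mean level of Ucp1.

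The arrays fell into sets that the labels do not name. Array medians ran from 5.995 to 6.37. The highest value was 19.93 on pCF4 and iVF3 and between 19.81 and 19.84 on the other 5 arrays, and the 5th percentile was 3.995 and 4.0 on the first pair against 4.38 to 4.44 on the others. Among the 5 arrays of the lower ceiling, Ucp1 differed between the depots by 0.54. Between the 2 arrays of the higher ceiling it differed by 9.56, with 1 array per depot and no replicate. iVF3, which shares the ceiling of pCF4, had the lowest Ucp1 value of all 7 arrays, 0.35 below the mean of the other intra-abdominal arrays.

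No other gene stood as far above the remaining arrays on pCF4 as Ucp1 did, and this held under the 3 other scalings tried. Of 9294 genes, 198 lay at least 2 above their value on every other array on pCF4, which is 2.13%. Ucp1 ranked 1 among these, and its gap of 7.78 also ranked 1 among the gaps of all genes on any array. The next largest gap on pCF4 was 6.50, of an immunoglobulin segment, and the largest of a named gene that is no receptor segment was 3.45, of Ezr, which encodes the membrane-cytoskeleton linker ezrin. With quantile normalization applied again, with arrays centred on their medians and with cyclic loess, the gap of Ucp1 was 6.84, 7.55 and 7.53 and ranked 1 each time.

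pCF4 also had more such genes than any other array. The counts were 2, 2 and 44 on pCF1 to pCF3, and 26, 6 and 157 on iVF1 to iVF3. Of the 198 genes of pCF4, 92 were gene segments of antigen receptors, which B and T cells rearrange. Against the mean of pCF1 to pCF3, Ucp1 was 8.67 higher on pCF4. The next largest such rise over all genes was 7.46, and the median gene rose by 0.096.

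**Figure D2:**
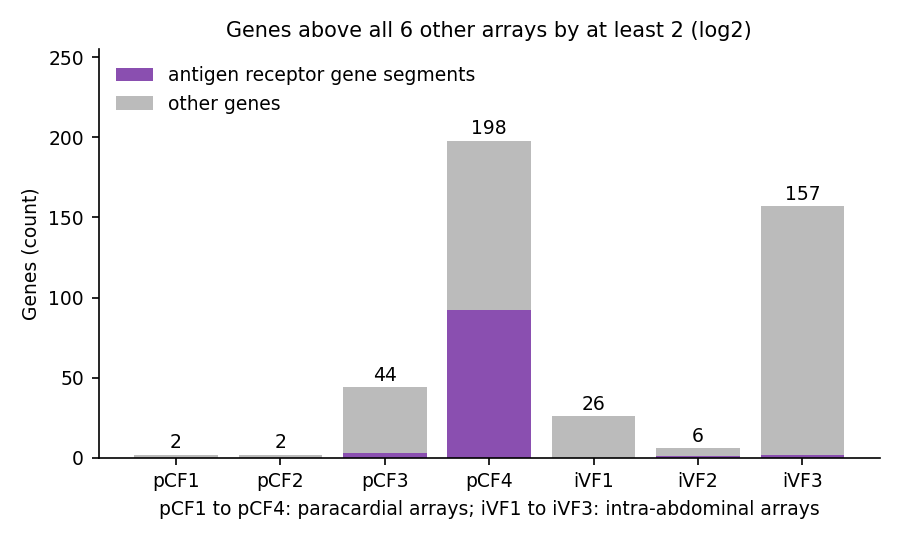
Number of genes (y axis, of 9294) whose log2 value on an array lies at least 2 above all 6 other arrays, for the paracardial arrays pCF1 to pCF4 and intra-abdominal arrays iVF1 to iVF3 (x axis); purple marks gene segments of antigen receptors. pCF4 has 198 such genes, 92 of them segments, and iVF3 has 157.

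The other uncoupling carriers did not share this pattern. Of 9 carriers listed, 5 were measured, and none of the 4 besides Ucp1 passed the test between depots in the deposited scaling, nor did any have an unadjusted p under 0.05 (limma), where 9.16% of all genes passed the adjusted test. Ucp3, the carrier of muscle and brown fat, was 4.55, 4.83, 4.77 and 5.28 on pCF1 to pCF4 and 5.15, 5.16 and 6.56 on iVF1 to iVF3. It was highest on iVF3, and its depot difference was -0.77 ± 0.40 (SE, adjusted p = 0.312). Slc25a30, a kidney-type mitochondrial carrier, stayed between 6.47 and 6.74 on all arrays.

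The adenine nucleotide carriers, which exchange ADP for ATP and can also leak protons, moved little on pCF4. Slc25a4 was 10.77, 11.08, 11.43 and 11.79 on the paracardial and 11.33, 11.33 and 12.23 on the intra-abdominal arrays. Slc25a5 was 16.70, 16.44, 16.81 and 17.35 on the paracardial and 16.00, 16.10 and 16.70 on the intra-abdominal arrays. Each of the 2 was 0.70 higher on pCF4 than the mean of pCF1 to pCF3, against 8.67 for Ucp1. Slc25a4 passed the test with cyclic loess only, at -1.16 (adjusted p = 0.0224), and the depot difference of Slc25a5, 0.56 as deposited, turned to -0.77 with quantile normalization and -0.47 with cyclic loess.

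Of 45 listed markers of brown and beige fat, 13 were measured, and several of them were high on pCF4 together with Ucp1. On that array 6 of the 13 lay at least 1 above the mean of pCF1 to pCF3, where 20.1% of all genes did. They were Cidea, Cox7a1, Cox8b, Acot2, Fabp3 and Otop1. The count was 6 under each of the other scalings as well, where 8.46% to 12.2% of all genes rose as far. As deposited, the share was larger for white adipocyte markers (11 of 12) and fatty acid oxidation genes (8 of 11). It was smaller for thermogenic transcription factors (2 of 8). On iVF3, 4 of the 13 lay at least 1 above the mean of the other intra-abdominal arrays, where 17.8% of all genes did. Between the depots none of the 13 passed the test in the deposited scaling, 2 had an unadjusted p under 0.05 (limma), and their median difference was -0.10 against 0.13 over all genes. That median over all genes was 0.0057 with quantile normalization, -0.024 with arrays centred on their medians and 0.041 with cyclic loess.

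Cidea, which encodes a lipid droplet protein abundant in brown fat, was 5.82, 5.93, 6.47 and 9.38 on pCF1 to pCF4. On the intra-abdominal arrays it was 5.87, 5.81 and 5.99. As for Ucp1, pCF4 was high, pCF3 came next, and the other 5 arrays lay close together. Cidea rose by 3.31 on pCF4 over the mean of the other paracardial arrays and by 0.15 on iVF3. Its depot difference was 1.01 ± 0.87 (SE, adjusted p = 0.542 by limma), and it fell to 0.19 without pCF4.

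Cox7a1, a muscle- and brown fat-type subunit of cytochrome c oxidase, was 5.95, 5.44, 5.73 and 8.24 on the paracardial and 5.63, 5.61 and 6.75 on the intra-abdominal arrays. Cox8b, another such subunit, was 4.37, 4.37, 4.67 and 6.86 on the paracardial and 4.33, 4.28 and 5.58 on the intra-abdominal arrays. Both were highest on pCF4 and second on iVF3, where Ucp1 was lowest. Their rises on pCF4 were 2.53 and 2.39, and on iVF3 they were 1.13 and 1.27.

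Fabp3, the heart-type fatty acid binding protein that brown adipocytes also make, was 6.32, 6.13, 7.07 and 8.68 on the paracardial and 7.37, 6.63 and 6.42 on the intra-abdominal arrays. It was highest on pCF4 and, unlike the cytochrome oxidase subunits, was not raised on iVF3. Otop1, a proton channel that marks brown fat, was 4.78, 4.58, 5.03 and 6.36 on the paracardial and 4.56, 4.30 and 7.0 on the intra-abdominal arrays. Its highest value was on iVF3, so it did not follow Ucp1 there. Acot2, a mitochondrial acyl-CoA thioesterase, rose by 2.34 on pCF4, yet its 3 intra-abdominal values, 8.88, 10.16 and 10.50, included the 2 highest of all. Its depot difference of -2.49 ± 0.74 (SE, adjusted p = 0.0926) passed the test under each of the other scalings, at adjusted p from 0.0279 to 0.0494.

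**Figure D3:**
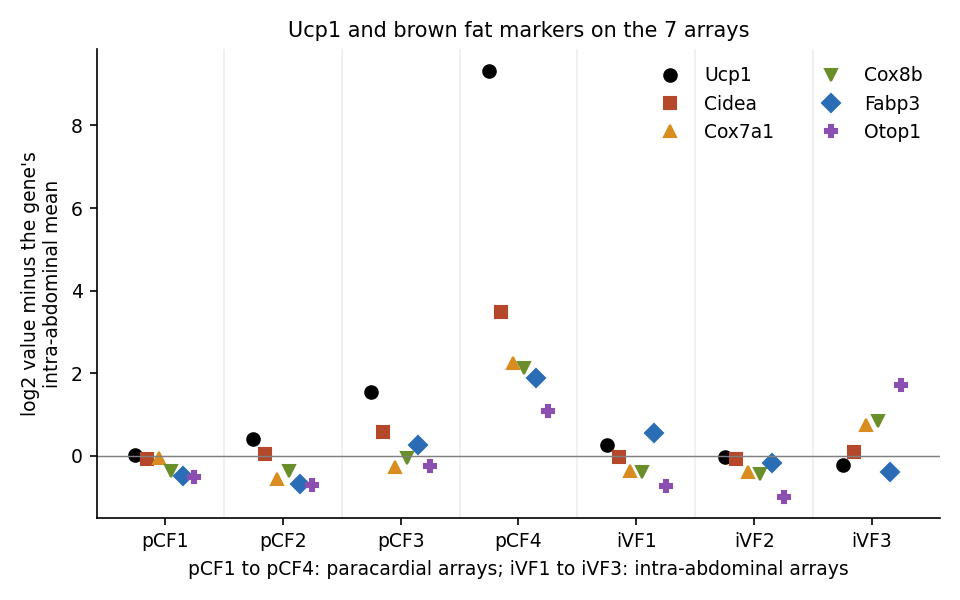
Log2 value minus the gene's own intra-abdominal mean (y axis) for Ucp1 and 5 brown fat markers on the paracardial arrays pCF1 to pCF4 and intra-abdominal arrays iVF1 to iVF3 (x axis). All 6 genes are raised on pCF4, with Ucp1 farthest, and Cox7a1, Cox8b and Otop1 but not Ucp1 are raised on iVF3.

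The 7 remaining markers rose by at most 0.64 on pCF4. Tmem26, a beige fat marker, was 6.09, 5.98, 5.95 and 6.64 on the paracardial and 5.52, 5.21 and 5.39 on the intra-abdominal arrays, so that its depots did not overlap, as for 26.7% of all genes. Its difference was 0.79 ± 0.23 (SE) and did not pass the test (adjusted p = 0.0886). S100b, a calcium-binding protein that brown adipocytes release, was lowest on pCF4, at 4.61 against 4.91 to 5.07 elsewhere. Kcnk3, a potassium channel of thermogenic adipocytes, was highest on iVF3, at 7.67. Pank1, Kng2, P2rx5 and Plin5 had their highest value on another array.

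**Figure D4:**
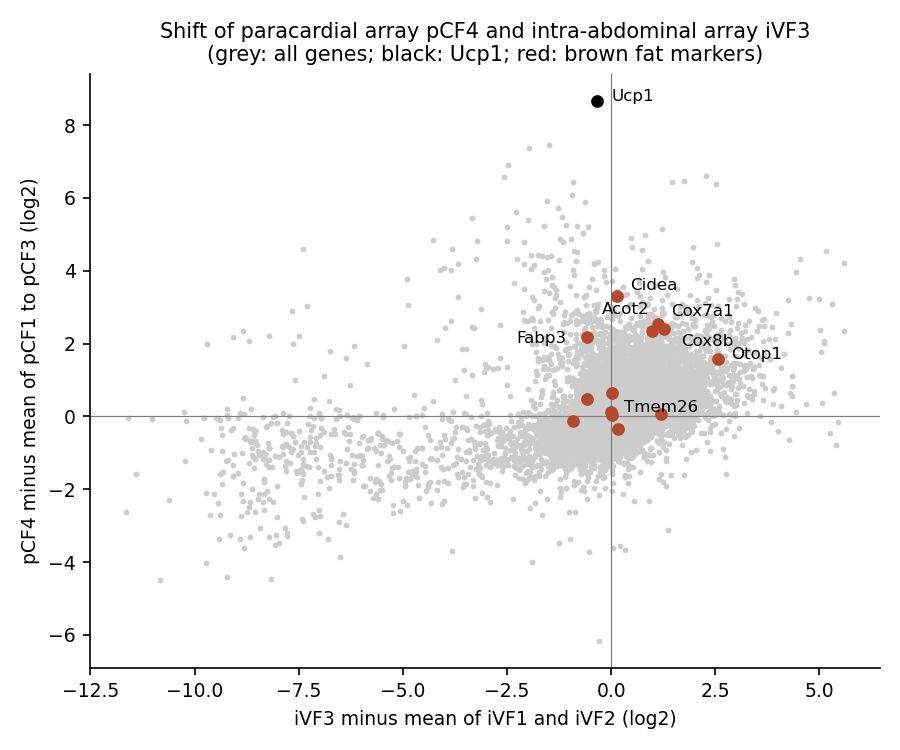
Rise of each gene on pCF4 over the mean of pCF1 to pCF3 (y axis, log2) against its rise on iVF3 over the mean of iVF1 and iVF2 (x axis, log2), for all 9294 genes (grey), Ucp1 (black) and 13 brown fat markers (red). Ucp1 lies highest of all genes at 8.67 and -0.35, and Cidea, at 3.31 and 0.15, is the highest of the markers.

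Genes that followed the profile of Ucp1 were sought by Pearson's r over the 7 arrays among the 3609 genes with a range of at least 2. Of these, 230 (6.37%) had r of at least 0.9, near the 6.61% of all genes with such an r. Because Ucp1 was high on pCF4 alone, r of at least 0.9 with it largely fixes pCF4 as the highest array, and all 230 were highest there. As a description, their median rise was 2.18 on pCF4 and 0.165 on iVF3. Ranks agreed less, with 38 of the 230 having Spearman's rho of at least 0.9. Without the 2 arrays farthest from the median of Ucp1, pCF3 and pCF4, r stayed at 0.9 or more for 7 of them. None of the 230 passed the test between depots, and 26 had an unadjusted p under 0.05 (limma). The points are 7 libraries of bulk tissue that also differ in ceiling and in cell makeup, so these correlations are descriptions.

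Cidea headed the followers with r = 0.997 (rho = 0.643), and it ranked 1 under each of the other scalings, with r from 0.996 to 0.999. Over the 5 arrays left without pCF3 and pCF4 its r was -0.09, so its likeness to Ucp1 rested on those arrays. Sin3b, a corepressor of transcription, came next with r = 0.995, at 6.46, 6.47, 6.74 and 8.39 on the paracardial and 6.37, 6.23 and 6.37 on the intra-abdominal arrays. Neil1, a DNA glycosylase of base excision repair, and Gtf2ird1, a transcription regulator, both had r = 0.992. Shmt2, the mitochondrial serine hydroxymethyltransferase, had r = 0.989, at 7.19, 7.06, 7.19 and 9.62 on the paracardial and 7.19, 6.88 and 6.91 on the intra-abdominal arrays.

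Ripk3, a kinase of necroptosis, Ptp4a3, a tyrosine phosphatase, and Ldlrad4, a negative regulator of TGF-β signalling, also had r = 0.989. Rfxank, a subunit of the RFX complex that drives MHC class II genes, had r = 0.986 and BC147527 had r = 0.982. Of these 10 genes, Cidea belonged to the brown fat marker list and no other belonged to a list of the Ucp1 pathway. All 10 kept r of at least 0.9 under each of the other scalings, but with the range of at least 2 also required, 2 of them still counted as followers with quantile normalization, 4 with arrays centred on their medians and 6 with cyclic loess. Gene segments of antigen receptors made up 57 of the 230 followers (24.8%) against 7.04% of the genes with a range of at least 2.

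By distance rather than shape, the ranked genes nearest to Ucp1 were another set. Profiles were centred on the intra-abdominal mean, and the root mean square distance over the 7 arrays was smallest for Ptpn7, a phosphatase of lymphocytes, which was 7.03, 7.10, 8.02 and 11.43 on the paracardial and 6.53, 5.55 and 6.13 on the intra-abdominal arrays. Cd5, a receptor on T cells, was next, at 7.60, 7.32, 8.49 and 11.81 on the paracardial and 6.93, 5.28 and 5.19 on the intra-abdominal arrays. The next were Sla2, an adaptor of T cell receptor signalling, Endou, an endoribonuclease, Ezr, and the pseudogene Ccnd3-ps, whose value is uncertain since it is a copy of a gene. Vav1, a signalling protein of blood cells, Cenpe, a motor protein of dividing cells, Septin1 and the DNA methyltransferase Dnmt1 completed the 10. For all 10, in contrast to Ucp1, the 4 paracardial values lay above the 3 intra-abdominal ones. Receptor segments were left out of this ranking, and some lay nearer to Ucp1 than Ptpn7, whose distance was 1.59. The depots overlapped for segments at distances of 0.79 and 0.89, as for Ucp1, but not for another at 0.92. Over all genes the depots did not overlap for 26.7%, in either direction.

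The marker lists of thymocytes, thymic epithelium and B cells had, like Ucp1, their highest mean on pCF4. In bulk tissue fewer cells of a type and less RNA per cell cannot be told apart. The mean over the 6 of 13 thymocyte markers measured was 11.91, 11.35, 12.64 and 14.26 on pCF1 to pCF4 and 10.11, 6.94 and 5.89 on the intra-abdominal arrays. It was highest on pCF4, and all 6 markers were highest there (5 with cyclic loess). Of the 6, 3 passed the test as higher in paracardial fat, as 6.25% of all genes did. Of these, Rag2 kept the call in 4 of 7 leave-one-out fits and Dntt and Cd3d in 1. Dntt, which adds bases at receptor joints in immature lymphocytes, was 15.43, 14.70, 16.33 and 17.91 on the paracardial and 12.42, 8.32 and 6.37 on the intra-abdominal arrays. The median r of the 6 with Ucp1 was 0.604, against 0.104 over all genes. The 1 marker with r of at least 0.9, Ptcra, the pre-T cell receptor chain, had r = 0.949 and is named after its value was seen. Rag2, a recombinase of receptor genes, had r = 0.610.

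Thymic epithelial markers (7 of 10 measured) had means of 9.92, 9.67, 9.81 and 10.77 on the paracardial and 7.44, 6.11 and 5.36 on the intra-abdominal arrays, and 5 passed as higher in paracardial fat, against 6.25% of all genes. The keratin Krt8 kept the call in all 7 leave-one-out fits, Krt18 in 6, Krt5 in 4, Psmb11 in 2 and Tbata in 1. Their median r with Ucp1 was 0.548, with 0.464 for Krt8 and 0.376 for Krt5. The 1 marker with r of at least 0.9, Foxn1, the master regulator of thymic epithelium, had r = 0.907 and is likewise named after its value was seen. B cell markers (6 of 8) had means of 6.09, 5.98, 7.0 and 7.42 against 5.57, 5.78 and 5.31, with 0 passing the test (limma) and 1 at an unadjusted p under 0.05. Their median r was 0.752, and the 1 of at least 0.9 was 0.938, for Cd79b, a chain of the B cell receptor complex. The part of these cells in the Ucp1 values was not tested. On pCF1 and pCF2, where both thymic lists were also high, Ucp1 was 4.61 and 4.99.

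The adipocyte markers that define the labelled tissue followed another order than Ucp1. White adipocyte markers (12 of 15 measured) had means of 5.82, 6.06, 8.94 and 9.54 on pCF1 to pCF4 and 14.33, 14.80 and 15.52 on the intra-abdominal arrays, and 9 passed the test as lower in paracardial fat, as 2.91% of all genes did. Of these, Agt, Aoc3, Lep, Lgals12, Npr3 and Plin4 kept the call in all 7 leave-one-out fits, Plin1 in 5, Pparg in 4 and Cidec in 1. On pCF4, 11 of the 12 lay at least 1 above the mean of the other paracardial arrays, where 20.1% of all genes did. Adipoq, the adipocyte hormone adiponectin, was 5.18, 5.53, 9.92 and 9.73 on the paracardial and 11.74, 12.71 and 13.45 on the intra-abdominal arrays. Adipoq was lowest on pCF1 and pCF2, where the adipocyte markers as a list were lowest too. From pCF3 to pCF4, where Ucp1 rose by 7.78, the 12 white adipocyte markers changed by a median of 0.36, and 4 of them (33.3%) were at least 1 higher on pCF4, as 15.3% of all genes were. These 4 were Lep at 2.58, Npr3 at 1.6, Plin4 at 1.37 and Cidec at 1.09. The lowest changes were -0.36 for Agt, -0.27 for Fabp4 and -0.19 for Adipoq. Between the same arrays 6 of the 13 brown fat markers (46.2%) were at least 1 higher on pCF4, a share not particular to that list. As many or more rose so far among thymocyte markers (5 of 6) and TCA cycle genes (4 of 8). The share was close to it for fatty acid oxidation (5 of 11) and lower for the respiratory chain and ATP synthase (12 of 38). The part of adipocyte content in the Ucp1 value of pCF4 was not tested.

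**Figure D5:**
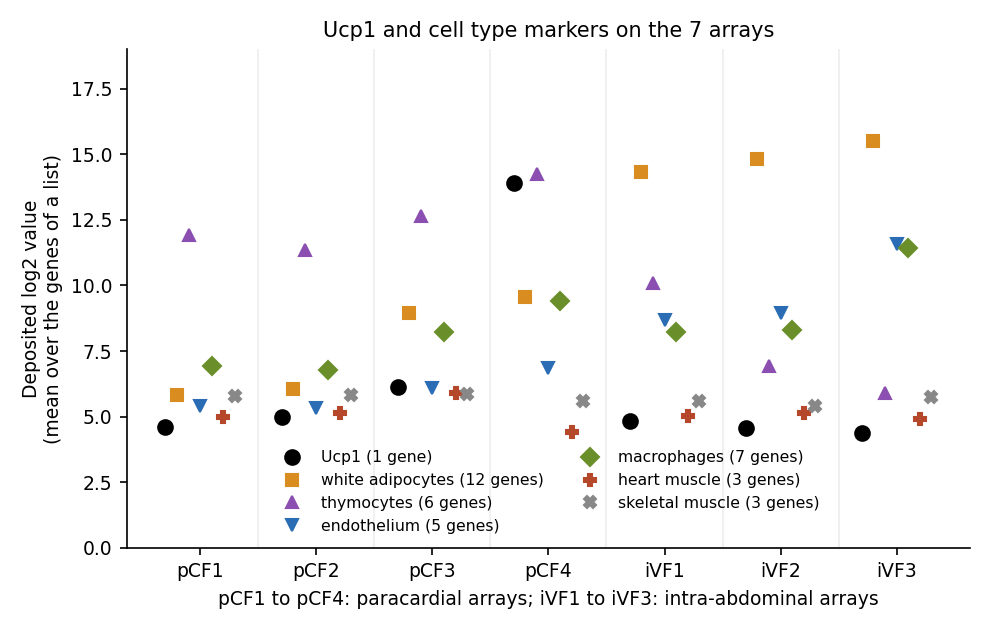
Deposited log2 value of Ucp1 and the mean log2 value of 6 lists of cell type markers (y axis) on the paracardial arrays pCF1 to pCF4 and intra-abdominal arrays iVF1 to iVF3 (x axis), each point being 1 array. Thymocyte markers are highest on pCF4, at 14.26, white adipocyte markers go from 8.94 on pCF3 to 9.54 on pCF4, and both muscle lists have their lowest paracardial mean on pCF4.

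The means of the muscle lists were not raised on the array with high Ucp1 over the other paracardial arrays. Heart muscle markers (3 of 19 measured) had means of 5.0, 5.15, 5.90 and 4.42 on the paracardial and 5.02, 5.14 and 4.92 on the intra-abdominal arrays, and skeletal muscle markers (3 of 23) had means of 5.80, 5.82, 5.87 and 5.60 against 5.58, 5.42 and 5.74. Both were lowest on pCF4 among the paracardial arrays, and few of their markers were measured. The skeletal marker Actn3 went the other way and was highest on pCF4, at 6.52 against 6.32 on pCF1. Macrophage markers (7 of 10) had means of 6.94, 6.77, 8.22 and 9.40 against 8.24, 8.31 and 11.41, and endothelial markers (5 of 9) 5.41, 5.33, 6.09 and 6.86 against 8.69, 8.93 and 11.57, so both lists were highest on iVF3. Of the macrophage markers none passed the test (limma) and 2 had an unadjusted p under 0.05, and of the endothelial markers 2 passed as lower in paracardial fat (all genes 2.91%), Cdh5 in all 7 leave-one-out fits and Kdr in 4. Means of markers of mesothelium (4 of 8), fibroblasts (2 of 10), sympathetic nerve and Schwann cells (4 of 12) and epididymis (2 of 8) were 5.82, 6.31, 4.86 and 4.86 on pCF4. Of these 4 lists, that of fibroblasts was highest there among the paracardial arrays. Of all markers of the muscle, mesothelium, fibroblast, nerve and epididymis lists, 1 passed the test, the neuronal tubulin Tubb3, at 1.0 ± 0.24 (SE, adjusted p = 0.0494), a call kept in 1 of 7 leave-one-out fits and under none of the other scalings. Over all genes 9.16% passed.

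Transcription factors of thermogenic fat did not rise with Ucp1 as a list. Of 32 listed, 8 were measured, 1 passed as higher and 1 as lower in paracardial fat, where 6.25% and 2.91% of all genes did, and the median difference was -0.31. Creb1, the factor that responds to cyclic AMP, was 11.01, 11.11, 10.87 and 10.77 on the paracardial and 8.70, 8.39 and 7.99 on the intra-abdominal arrays. The difference was 2.58 ± 0.22 (SE, adjusted p = 0.00671, limma), with no overlap, and its lowest paracardial value was on pCF4. Pparg, the master regulator of adipocytes, differed by -4.98 ± 0.79 (SE, adjusted p = 0.0175), lower in paracardial fat, and it lost the call without pCF1, pCF2 or iVF2, at adjusted p up to 0.0756.

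Irf4, which brown adipocytes induce on fasting and cold and which lymphocytes also use, had r = 0.934 with Ucp1, at 5.19, 5.26, 5.77 and 6.73 on the paracardial and 5.55, 5.61 and 5.58 on the intra-abdominal arrays. Klf15, a factor of lipid and amino acid metabolism that is named after its value was seen, had r = -0.959 over a narrow range from 5.89 to 6.47. Repressors of the brown programme (5 of 14 measured) had 0 members past the test (limma) and 0 with an unadjusted p under 0.05, with a median difference of -0.06.

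The signalling and fuel genes upstream of the protein were lower in paracardial fat where they passed the test. The white adipocyte markers were lower there too, with means of 5.82 and 6.06 on pCF1 and pCF2 against 14.33 to 15.52 on the intra-abdominal arrays. The part of adipocyte content in the depot differences of the pathway genes was not tested. Of 8 of 24 measured genes of adrenergic and thyroid signalling, 2 passed as lower, where 2.91% of all genes did, Prkar2b, a regulatory subunit of protein kinase A, at -6.15 ± 1.16 (SE, adjusted p = 0.0250), and the adenylate cyclase Adcy5, at -2.34 ± 0.47 (SE, adjusted p = 0.0303). Both calls survived in 2 of 7 leave-one-out fits. Of 13 of 25 measured genes of fatty acid supply and lipolysis, 7 passed as lower, and the median difference was -4.23. Pnpla2, the triglyceride lipase that starts lipolysis, was 6.82, 6.77, 11.16 and 11.96 on the paracardial and 16.08, 16.64 and 16.38 on the intra-abdominal arrays. Its difference of -7.19 ± 1.43 (SE, adjusted p = 0.0286) survived in 2 of 7 leave-one-out fits, while that of Aqp7, the glycerol channel, -7.35 ± 0.85 (SE, adjusted p = 0.00896), survived in all 7. Of the others, Slc27a1, a fatty acid transport protein, survived in 7, Plin1, a lipid droplet coat protein, in 5, Angptl4, an inhibitor of lipoprotein lipase, in 3, and Cidec and G0s2 in 1.

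Genes of the oxidative machinery were highest on iVF3 more often than on pCF4, as deposited and under the 3 other scalings. Over all 9294 genes, 1901 (20.5%) were highest on iVF3 and 2795 (30.1%) on pCF4 as deposited, an order that turned under the other scalings, to 2777 and 1614 with quantile normalization, 2232 and 1785 with arrays centred on their medians and 2403 and 2103 with cyclic loess. Of 11 of 26 measured genes of fatty acid oxidation, 10 were highest on iVF3 and none on pCF4, and 1, Hadh, passed as lower in paracardial fat, where 2.91% of all genes did (-3.27 ± 0.78 SE, adjusted p = 0.0499). That call survived in 1 of 7 leave-one-out fits, and 4 to 6 genes of the list passed as lower under the other scalings. All 8 measured TCA cycle genes of 21 were highest on iVF3, with 0 past the test as deposited (limma) and 2 at an unadjusted p under 0.05. Of 38 of 96 measured genes of the respiratory chain and ATP synthase, 22 were highest on iVF3 and 11 on pCF4, with 0 past the test as deposited and 2 at an unadjusted p under 0.05. On pCF4, 24 of these 38 lay at least 1 above the mean of the other paracardial arrays, where 20.1% of all genes did. On iVF3, 23 lay as far above the mean of the other intra-abdominal arrays, where 17.8% of all genes did. These counts moved to between 11 and 16 on pCF4 and between 9 and 23 on iVF3 under the other scalings. Under the other scalings 1 to 3 TCA cycle genes and 1 to 4 respiratory chain genes passed, all lower in paracardial fat.

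Other heat-producing routes were barely covered. Of 14 genes of thermogenesis without Ucp1, 2 were measured. Gamt, which makes creatine, differed by -0.87 ± 0.20 (SE, adjusted p = 0.0473), lower in paracardial fat, and lost the call under each of the other scalings. Sln, the muscle regulator of the calcium pump, was 4.73, 4.76, 6.47 and 4.26 on the paracardial and 4.76, 5.34 and 4.48 on the intra-abdominal arrays, so it was low where Ucp1 was high.

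Of 7 of 23 measured genes of glucose use and lipid synthesis, 2 passed as lower in paracardial fat, where 2.91% of all genes did, the sugar-sensing factor Mlxipl and the insulin-responsive glucose transporter Slc2a4, which kept the call in 3 and 1 of 7 leave-one-out fits. Elovl6, a fatty acid elongase, was 7.57, 7.31, 7.58 and 10.85 on the paracardial and 7.58, 8.46 and 11.16 on the intra-abdominal arrays. Gpd1, which makes glycerol 3-phosphate, was 5.78, 6.32, 10.65 and 13.96 on the paracardial and 13.90, 14.82 and 16.88 on the intra-abdominal arrays. Both were higher on pCF4 than on the other paracardial arrays and higher still on iVF3.

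Of 10 of 22 measured factors that brown fat secretes, 3 passed as lower in paracardial fat, where 2.91% of all genes did, leptin (Lep), the satiety hormone, Angptl4 and the endothelin receptor Ednrb, which the list includes. Lep kept the call in all 7 leave-one-out fits, Ednrb in 4 and Angptl4 in 3. Bmp7, which promotes brown fat formation, had r = 0.942 and rho = 1.0 with Ucp1. It was 4.72, 4.82, 4.85 and 5.87 on the paracardial and 4.80, 4.56 and 4.25 on the intra-abdominal arrays. Its range of 1.62 was below the limit of 2, so it was not among the followers. The 6 arrays other than pCF4 had Bmp7 values between 4.25 and 4.85, and the order of the 7 arrays was that of Ucp1. The 5th percentile of those 6 arrays ran from 4.0 on iVF3 to 4.44 on iVF1. The shared order therefore rests on low and close values, such as 4.80, 4.82 and 4.85 on iVF1, pCF2 and pCF3.

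Counted once each, 117 of 318 pathway genes besides Ucp1 were measured, of which 1 passed as higher and 16 as lower in paracardial fat, with a median difference of -0.58. Over all 9294 genes, 851 passed (9.16%), 581 higher (6.25%) and 270 lower (2.91%), while quantile normalization gave 436 higher and 474 lower and cyclic loess 453 higher and 571 lower. Of the 117, 3 had r of at least 0.9 with Ucp1, Cidea, Irf4 and Bmp7, which is 2.56% against 6.61% of all genes. Of the 117, 25 (21.4%) were highest on pCF4 and 69 (59.0%) on iVF3, against 30.1% and 20.5% of all genes as deposited.

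Genes near Ucp1 on chromosome 8 did not stand out as it did. The nearest measured gene before it in the RefSeq order, Tbc1d9, a regulator of small GTPases 3 genes away, had r = 0.972 with values of 5.94, 5.94, 6.13 and 6.89 on the paracardial and 5.82, 5.80 and 6.02 on the intra-abdominal arrays. Its rise on pCF4 was 0.89. Zfp330 had r = 0.864 and Gm25138 r = -0.122 on that side. On the other side Tecr, an enzyme of fatty acid elongation, had r = -0.093, the chaperone Dnajb1 r = 0.858 and Gipc1 r = 0.574, and they lay 13, 18 and 19 genes away.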

How the data were processed

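Gene expression was measured on Affymetrix arrays in 4 paracardial (pCF) and 3 intra-abdominal (iVF) fat samples. The authors deposited 1 log2 value per probe and array. RMA and Affymetrix Expression Console are named in the submitters' processing notes without versions, and background correction and genome build were not given in the sources used here. Log2 as the unit is taken from the values and the named method, and scanner files were not used here. Arrays have no read depth, so precision is limited by how many there are. Each of the 7 columns names its sample.

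Of 11949 probes, 9352 had 1 gene symbol, 522 several and 2075 none. Symbols were updated through Entrez identifiers where possible (5789 matched RefSeq, GRCm38.p6, used here for names, gene order and promoter windows; 188 changed). For 52 genes with more than 1 probe the one with the highest mean was kept, leaving 9294 genes, and 635 probes shared all values with another. No filter on low values was used. The depot difference (pCF minus iVF) was fitted without covariate by lmFit and eBayes of limma 3.58.1 under R 4.3.3 (two-sided, 5 residual and 1.68 prior degrees of freedom), adjusted by Benjamini-Hochberg over all genes at 0.05. The fit was tested on simulated data. Other steps used matplotlib 3.10.9, scipy 1.17.1, numpy 2.4.6 and pandas 2.3.3 under Python 3.11.15.

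The rule for named genes took Ucp1, the 10 genes with the highest and the 5 with the lowest r, the 10 nearest profiles, the measured carriers, up to 4 members of each pathway list by r and by the test and 2 by difference, up to 3 of each cell type list by level, and 3 neighbours on each side. Receptor segments, small RNAs, odorant and vomeronasal receptors and gene models without a name were left out of the ranks. Tmem26, Otop1, Kcnk3, Pank1, Kng2, P2rx5, Plin5, Klf15, Ptcra, Foxn1, Rag2 and Olfr1346, and list members named with the leave-one-out fits they survived, were named after their values were seen, and the rises of pCF4 and iVF3 were added then. The members, the 12 pathway and 12 cell type lists and the split by ceiling were chosen with earlier results of these data known. Alternatives were 3 other scalings, filters dropping the lowest 25% or 50% of genes, the mean over a gene's probes, array weights, eBayes with a robust trend, a block by replicate number or by ceiling, the 5 arrays of the lower ceiling, each array left out, and other limits of likeness, range and gap.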

Additional observations from a re-analysis of the deposited data

Results flagged for a closer look

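In paracardial fat, with 4 arrays, the highest or lowest array was compared with the nearest of the other 3. Its gap to that array, divided by the whole range, was set against Dixon's critical value of 0.829. Chance alone passes about 1 in 20 groups. Of 135 genes examined, 24 passed, and over all genes 1333 (14.3%) did, 742 with pCF4 highest and 194 with it lowest.

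pCF4 stood apart as the highest for Ucp1 with a ratio of 0.836, for the brown fat marker Cox8b with 0.878 and for the secreted factor Bmp7 with 0.893. Cidea and Cox7a1 did not pass. Members of the pathway lists, Cox8b and Bmp7 among them, were named in part by their r with Ucp1, so their ratios are descriptions. The genes most like Ucp1 were chosen for that likeness, and so largely for a high value on pCF4, which leaves their ratios as descriptions. Among those chosen by Pearson's r, the ratio was 1.0 for Ripk3, 0.96 for BC147527, 0.95 for Shmt2, 0.89 for Gtf2ird1, 0.879 for Neil1, 0.853 for Sin3b and 0.843 for Rfxank. The ratio was 0.895 for Dnmt1, 0.885 for Ezr and 0.872 for Cenpe, which were nearest to Ucp1 by distance and chosen for it in the same way. It was 0.88 for the thymocyte gene Ptcra, which was named after its r with Ucp1 was seen. Genes of fatty acid use with the array highest were Elovl6 with 0.924, Slc25a20, the carnitine carrier, with 0.911 and Cpt2, a carnitine palmitoyltransferase, with 0.838. The neighbours Gipc1 and Zfp330 had ratios of 0.929 and 0.873. The ratio does not measure size, and their gaps to the next array were 0.22 and 0.68, against 7.78 for Ucp1.

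pCF4 stood apart as the lowest for Acta1, skeletal muscle actin, with 0.954, Acnat2 with 0.917 and Tmem52b with 0.87. Acnat2 and Tmem52b were chosen for a low r with Ucp1, and so largely for a low value on pCF4. Their ratios are therefore descriptions. pCF3 was the highest for Upk1b, a mesothelial marker, with 0.981. pCF2 was the lowest for Stmn2, a nerve marker, with 1.0.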

How the results depend on the processing

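The depot difference of Ucp1 kept its direction and missed the threshold under all 18 alternatives, from 0.54 to 3.76 with adjusted p from 0.270 to 0.655. It was 0.66 without pCF4 and 3.76 without pCF1, and with array weights it was 0.60. The count of genes passing, 851, was 3614 with array weights, which did not converge, 1654 with the ceiling as a block and 185 to 833 with 1 array left out. Without iVF2 it was 185 and without pCF1, pCF2 or pCF3 it was 196, 338 and 394. The count of pathway members passing, 17, was 30 with quantile normalization, 34 with cyclic loess, 61 with array weights, 34 with the ceiling as a block and 4 to 16 with 1 array left out. It was 4, 5, 9 and 4 without pCF1, pCF2 and pCF3 and iVF2.

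The 230 followers became 57 with quantile normalization, 113 with arrays centred on their medians, 127 with cyclic loess, 137 by Spearman's rho, 482 at a range of at least 1 and 61 at 4. They were 59 to 399 with 1 array left out, 59 without pCF4 and 399 without iVF3. The 198 genes high on pCF4 became 78, 127 and 102 under the 3 scalings, 785 at a gap of at least 1 and 15 at 4. They were 199 to 310 with another array left out, 310 of them without pCF3, and without pCF4 itself no value can be given. The cause of these changes was not tested, except that a wider limit admits more genes by its construction.

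The labels do not say whether the replicate numbers pair the samples. Same-numbered arrays correlated in their deviations with 0.048, 0.047 and -0.50. These values cannot settle it, since the arrays also differ in ceiling and in cell makeup. With the replicate block, where pCF4 stands alone, the difference of Ucp1 was 0.66, and 0 genes and 0 pathway members passed (limma), with 2134 and 51 at an unadjusted p under 0.05 against 2265 genes without it. Precision is limited by 7 arrays and by a signal over background that is unknown.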

Other observations

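Some genes went against Ucp1. Of the 3609 genes with a range of at least 2, 1 had r of -0.9 or below, the olfactory receptor gene Olfr1346 with r = -0.902 (rho = -0.306), at 8.74, 8.54, 8.54 and 6.66 on the paracardial and 8.47, 8.73 and 7.92 on the intra-abdominal arrays. Without olfactory and vomeronasal receptors, small RNAs, unnamed gene models and receptor segments, the lowest r was -0.658, of Tmem52b, which was 5.31, 5.47, 5.29 and 4.06 on the paracardial and 6.59, 5.59 and 4.63 on the intra-abdominal arrays. Acnat2, a peroxisomal acyltransferase, followed with -0.657, Tinag, a basement membrane protein, with -0.653, Gldc, the glycine decarboxylase, with -0.634 and Sh3pxd2a, a scaffold of cell invasion structures, with -0.631. A low r with Ucp1 favours a low value on pCF4, and all 5 were lowest there. Of these, Sh3pxd2a passed the test between depots, at -1.98 ± 0.26 (SE, adjusted p = 0.0117 by limma).

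Single genes were also far above all other arrays on other libraries. Prol1 lay 6.28 above on pCF1, Mup20, a major urinary protein, 6.42 on pCF3, the kallikrein Klk1 4.48 on iVF1, Ptgs2, the inducible cyclooxygenase, 6.57 on iVF2, and Dpt, dermatopontin, 5.43 on iVF3. These gaps are the largest of their arrays and, like those of the receptor segments, are smaller than the 7.78 of Ucp1. The source of these signals was not tested.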
